A study of Homo sapiens with 8 samples.

Results

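The 10 genes described here encode the enzymes that make prostaglandins, 2 receptors for prostaglandin E2, and the proteins that take prostaglandins up and break them down. They are PTGS1, PTGS2, PTGES, PTGES2, PTGES3, PTGER2, PTGER4, HPGD, PTGR1 and SLCO2A1, chosen by symbol, and all 10 were found among the 59050 gene symbols of each count file. Their expression was measured by RNA sequencing in 8 xenograft tumours of H2122, an established cell line from a human lung cancer. In 4 tumours the cells were parental, with genotype WT, and in 4 they carried a knockout of SMARCA4, the gene of a motor subunit of SWI/SNF chromatin remodellers. Both groups are labelled as treated with vehicle, and no group received an active agent. The title of the series places the comparison within work on anti-tumour immunity, immunotherapy response and STING. Whether the knockout cells were 1 clone or a pool, the strain and immune status of the host, and how the knockout was made are not given in the sources used here. The labels do not say that tumours of a group came from separate cultures, so p-values measure the spread between these tumours.

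Prostaglandins are lipid mediators made from arachidonic acid. The cyclooxygenases PTGS1 and PTGS2 convert arachidonic acid to prostaglandin H2, and terminal synthases such as PTGES turn that intermediate into prostaglandin E2. Prostaglandin E2 signals through G protein-coupled receptors, of which PTGER2 and PTGER4 raise cyclic AMP, and its signal ends when SLCO2A1 carries it into cells where HPGD oxidises it and PTGR1 reduces the product. In tumours prostaglandin E2 is known as a suppressor of T cell and natural killer cell responses.

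The RefSeq promoter table matched 9 of the 10 genes, SLCO2A1 being the exception. The 250 bases upstream of the RefSeq start (GRCh38.p14; for PTGS1 the more upstream of 2 starts) are shown for PTGS1, PTGS2 and PTGES, to set the promoters of the cyclooxygenase pair and of the main terminal synthase beside the different changes of their transcripts. The windows are chr9:122370283-122370532 on the plus strand for PTGS1, chr1:186680424-186680673 on the minus strand for PTGS2 and chr9:129753043-129753292 on the minus strand for PTGES. Each reads 5′ to 3′ along its gene, and capitals mark exact matches, on either strand, to the motifs that are spelled out after the sequences, E-boxes excepted.
PTGS1: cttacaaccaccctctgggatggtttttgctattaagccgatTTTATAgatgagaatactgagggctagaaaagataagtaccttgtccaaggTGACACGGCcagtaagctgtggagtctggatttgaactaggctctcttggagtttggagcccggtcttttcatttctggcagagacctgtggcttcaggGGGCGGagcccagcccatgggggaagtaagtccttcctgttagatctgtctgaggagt
PTGS2: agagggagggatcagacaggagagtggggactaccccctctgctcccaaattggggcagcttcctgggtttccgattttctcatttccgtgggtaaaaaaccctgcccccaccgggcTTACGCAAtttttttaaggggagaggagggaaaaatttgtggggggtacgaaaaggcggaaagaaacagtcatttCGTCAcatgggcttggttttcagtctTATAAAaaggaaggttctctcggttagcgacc
PTGES: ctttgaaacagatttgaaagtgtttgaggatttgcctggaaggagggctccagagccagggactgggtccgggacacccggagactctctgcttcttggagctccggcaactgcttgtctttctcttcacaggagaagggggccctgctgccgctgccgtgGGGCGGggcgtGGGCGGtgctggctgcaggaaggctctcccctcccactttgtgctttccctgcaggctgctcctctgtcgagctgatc
The search covered the cyclic AMP response element TGACGTCA and its core TGACG, AP-1 (TGANTCA), NF-kB (GGGNNTTCC), C/EBP (TTNNGNAA), the TATA box TATAAA, the E-box CANNTG, the antioxidant response element TGACNNNGC and the GC box GGGCGG. The core TGACG lies within the full cyclic AMP response element, and the first bases of the antioxidant response element can overlap it. In PTGS2 the search found a TATA box beginning 32 bases before the start, a cyclic AMP core, on the opposite strand, at 58 bases and a C/EBP match at 133 bases. Among all 35116 windows of this length in the table, 10.7% held the TATA box, 21.2% the cyclic AMP core and 33.2% the C/EBP match. In PTGS1 it found a GC box at 58 bases, an antioxidant response element at 157 bases and a TATA box, on the opposite strand, at 208 bases. PTGES held GC boxes at 89 and 78 bases, a motif present in 42.6% of windows, against 10.9% for the antioxidant response element. The PTGS2 and PTGES windows each held an E-box, found in 61.8% of windows. The full cyclic AMP response element (1.65% of windows), the AP-1 motif (6.57%) and the NF-kB motif (5.78%) had no match in these 3 windows. A match describes letters only, and binding was not measured. Variants of these patterns were not searched for, so a window without a match may still hold a site.

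Libraries held 19785922 to 23191698 gene counts in parental and 20662882 to 21981123 in knockout tumours. Levels are given as CPM, counts per 1000000 of the TMM-scaled library, and a gene is called changed at an adjusted p under 0.05 in edgeR's quasi-likelihood test. SMARCA4 was at 198 to 235 CPM in parental and 22.3 to 31.1 CPM in knockout tumours, 8.09-fold lower by the fit (edgeR adjusted p = 1.45e-07), so every library lay on the side that its label gives. Epithelial markers, 10 genes that include EPCAM and keratins, summed to 6600 to 8815 CPM, while the lung adenocarcinoma marker NKX2-1 had 0 counts in all 8 libraries. Of the 8 epithelial markers tested, KRT7 and KRT19 were called lower in knockout tumours (log2 -0.71 and -1.01, edgeR adjusted p = 0.000333 and 8.49e-05). Leukocyte and macrophage markers (10 genes) summed to 7.65 to 71.3 CPM in parental and 12.9 to 30.4 CPM in knockout tumours, with parental replicates 2 and 3 highest. Fibroblast and pericyte markers (9 genes) summed to 183 to 613 and 347 to 609 CPM, and endothelial markers (7 genes) to 7.35 to 18.04 and 8.68 to 15.3 CPM. Among the 6 fibroblast and pericyte markers tested, only LUM was called, higher in knockout tumours (log2 5.00, edgeR adjusted p = 1.98e-06). LUM passed the filter on low counts through the knockout group, where it was high, so its call follows in part from that selection. In bulk tumours fewer cells of a type and less RNA per cell cannot be told apart, and the part of host RNA in the results below was not tested.

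Of the 10 genes, 9 passed the filter on low counts, and PTGER2 did not. PTGS1, PTGES, HPGD and PTGR1 were called higher in knockout tumours, PTGER4 and SLCO2A1 were called lower, and PTGS2, PTGES2 and PTGES3 were not called. Over all 16219 genes tested, 27.0% were called, 13.0% higher and 14.1% lower. The 4 knockout values lay wholly apart from the 4 parental values for PTGS1, PTGES, HPGD, PTGR1 and PTGER4, a pattern found in 29.3% of all genes tested (14.0% higher, 15.3% lower). PTGER4 passed the filter through the parental group, where it was high, so it enters these counts by that selection.

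**Figure D1:**
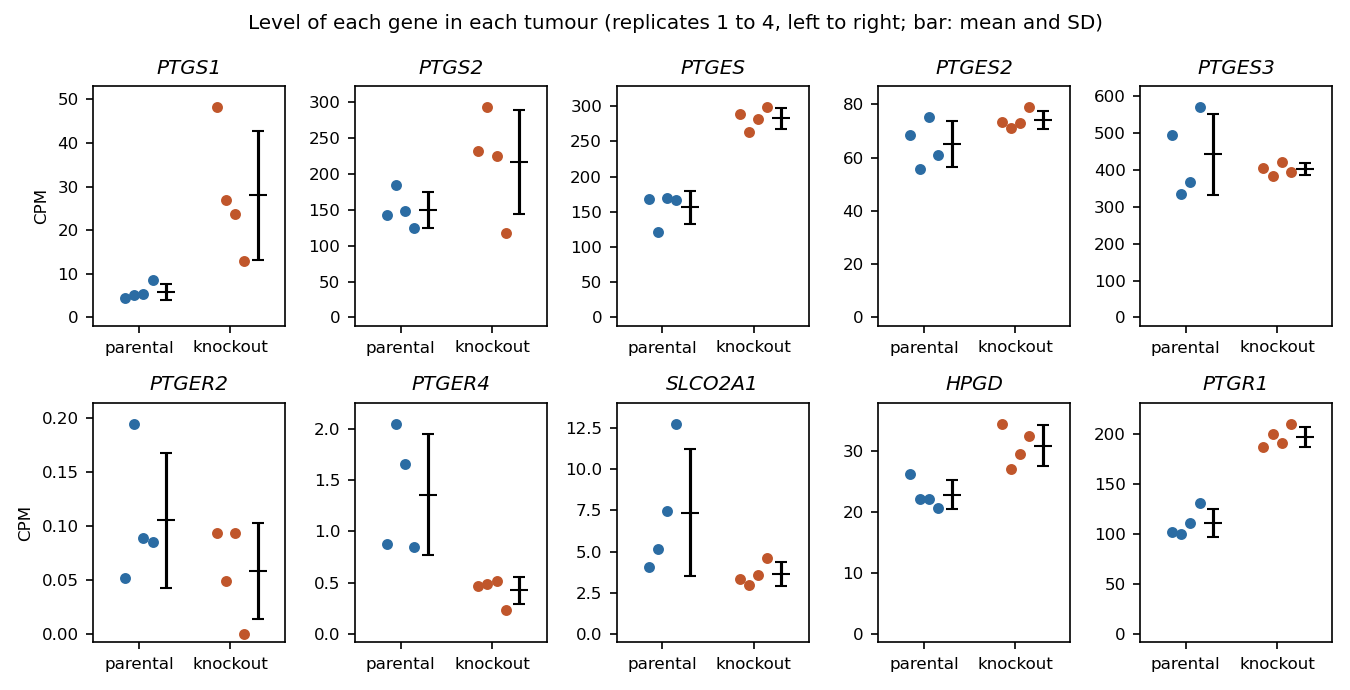
Level in CPM (y axis, linear, a separate scale for each gene) of the 10 genes in the 4 parental (blue) and 4 SMARCA4 knockout (orange) tumours; points are tumours, replicates 1 to 4 from left to right, and the bar gives the mean and SD. PTGS1 is at 4.51 to 8.67 CPM in parental and 13.0 to 48.3 CPM in knockout tumours, and for PTGS2 knockout replicate 4, at 118 CPM, lies below every parental tumour.

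PTGS1, the cyclooxygenase that many tissues express constantly, showed the largest fitted change of the 9 tested. Its level was 4.51, 5.13, 5.36 and 8.67 CPM in parental replicates 1 to 4 and 48.3, 27.0, 23.8 and 13.0 CPM in knockout replicates 1 to 4. Every knockout tumour was above every parental tumour, and the knockout tumours differed among themselves by more than the parental ones. The means were 5.92 ± 1.87 and 27.99 ± 14.8 CPM (SD, n = 4 each), a rise of 4.71-fold (95% interval 2.75 to 8.06, log2 2.23, SE 0.353, edgeR adjusted p = 0.000757). PTGS1 (ENSG00000095303) lies on chromosome 9 at 122370530 to 122395703, plus strand (GENCODE 29, GRCh38). AL162424.1, a non-coding RNA annotated in a PTGS1 intron on the same strand, had 1 count among the parental and 33 among the knockout tumours, and was too low to be tested. Mast cells and platelets are known sources of PTGS1, and their 8 markers summed to 12.4 to 33.6 CPM in parental and 24.5 to 38.6 CPM in knockout tumours. Of these markers 5 could be tested, and 3 were called. The platelet genes PPBP and ITGA2B were higher in knockout tumours, as PTGS1 was. PPBP was at 0.383 to 1.70 CPM in parental tumours. In knockout replicates 1 to 4 PPBP was at 12.5, 14.1, 24.2 and 23.7 CPM (log2 3.98, edgeR adjusted p = 1.95e-05). ITGA2B had 5 to 8 counts in parental and 17, 16, 14 and 30 in knockout replicates 1 to 4 (log2 1.61, edgeR adjusted p = 0.00676). ITGA2B passed the filter on low counts through the knockout group, where it was high, so its call follows in part from that selection. Within the knockout group PTGS1 was highest in replicate 1, PPBP in replicate 3 and ITGA2B in replicate 4. KIT, a mast cell receptor, was lower, at 11.8 to 28.6 and 6.58 to 9.36 CPM (log2 -1.37, edgeR adjusted p = 0.00209). The platelet genes GP9 and PF4 had 0 and 1 counts over all libraries. The mast cell gene CPA3 had 7, 39, 29 and 0 counts in parental tumours, in replicate order, and 159, 0, 5 and 78 in knockout tumours, and TPSAB1 had 3, 20, 12 and 0 against 70, 1, 2 and 70. The part of mast cells and platelets in the PTGS1 difference was not tested.

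PTGS2, the inducible cyclooxygenase, was far more abundant and was not called. It stood at 143, 185, 149 and 124 CPM in parental and 232, 293, 225 and 118 CPM in knockout replicates 1 to 4. Knockout replicates 1 to 3 lay above every parental tumour, and knockout replicate 4 lay below every one of them. The means were 150.2 ± 25.4 and 217 ± 72.8 CPM (SD, n = 4 each), and the fitted log2 difference was 0.53 (SE 0.226, 95% interval 0.04 to 1.03, edgeR adjusted p = 0.107). Without knockout replicate 4 the log2 fold change was 0.74 and the gene was called (edgeR adjusted p = 0.00461). PTGS2 (ENSG00000073756) lies on chromosome 1 at 186671791 to 186680427, minus strand. PACERR, a non-coding RNA that starts beside the PTGS2 promoter on the other strand, had 10 to 27 counts in parental and 28 to 35 in knockout libraries (log2 fold change 0.64, SE 0.307, edgeR adjusted p = 0.149). PACERR and AL162424.1 were singled out after their values were seen. PACERR starts at 186680622, upstream of the annotated start of PTGS2 transcription at 186680427, and AL162424.1 shares 0 exon bases with PTGS1. AL162424.1 lies in an intron on the same strand, so its reads cannot be told apart from those of unspliced PTGS1 RNA.

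The balance of the cyclooxygenase pair was set out per length of merged exons (5791 bases for PTGS1 and 5269 for PTGS2). PTGS1 made up 2.80%, 2.46%, 3.17% and 5.97% of the summed level in parental replicates 1 to 4. It made up 15.9%, 7.71%, 8.77% and 9.08% in knockout replicates 1 to 4. The group means were 3.60% ± 1.61 and 10.4% ± 3.73 (SD, n = 4 each), and the groups did not overlap, although PTGS2 remained the larger part in all 8 tumours.

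The terminal synthases differed from one another. PTGES, the inducible microsomal prostaglandin E synthase, was at 169, 121, 169.9 and 166 CPM in parental and 288, 263, 282 and 299 CPM in knockout replicates 1 to 4. Every knockout tumour lay above the parental ones, with means of 156 ± 23.8 and 283 ± 14.9 CPM (SD, n = 4 each). The rise was 1.81-fold (95% interval 1.52 to 2.15, log2 0.86, SE 0.113, edgeR adjusted p = 0.000225). PTGES (ENSG00000148344) lies on chromosome 9 at 129738331 to 129753047, minus strand.

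PTGES2, a membrane-associated synthase, was at 68.6, 55.6, 75.4 and 61.1 CPM in parental and 73.3, 71.2, 73.1 and 78.9 CPM in knockout replicates 1 to 4. The groups overlapped and the gene was not called (log2 fold change 0.19, 95% interval -0.03 to 0.41, edgeR adjusted p = 0.202). PTGES3, the cytosolic synthase that is also the HSP90 co-chaperone p23, was at 496, 334, 367 and 570.3 CPM in parental and 405, 384, 422 and 394 CPM in knockout replicates 1 to 4. All knockout tumours lay within the parental range (log2 fold change -0.14, 95% interval -0.47 to 0.19, edgeR adjusted p = 0.543). Without parental replicate 4 the PTGES3 fold change was 0.0035 on the log2 scale. The 5 processed copies PTGES3P1 to PTGES3P5 held 294 counts over all libraries, 291 of them at PTGES3P1, so reads shared with copies may shift PTGES3 slightly. PTGES2 lies on chromosome 9 at 128120693 to 128128462 and PTGES3 on chromosome 12 at 56663341 to 56688408, both on the minus strand.

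Set against each other per length, PTGES and PTGES3 changed places. The ratio of the PTGES level to the PTGES3 level was 0.610, 0.649, 0.830 and 0.523 across the parental tumours in replicate order. Among the knockout tumours it was 1.27, 1.23, 1.198 and 1.36. PTGES3 was therefore the more abundant per length in every parental tumour and PTGES in every knockout tumour. Merged exon lengths of 1896 and 3399 bases were used. With the longest annotated transcript of each gene, an alternative chosen after the data were seen, the ratios were 0.459 to 0.728 in parental and 1.05 to 1.19 in knockout tumours.

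**Figure D2:**
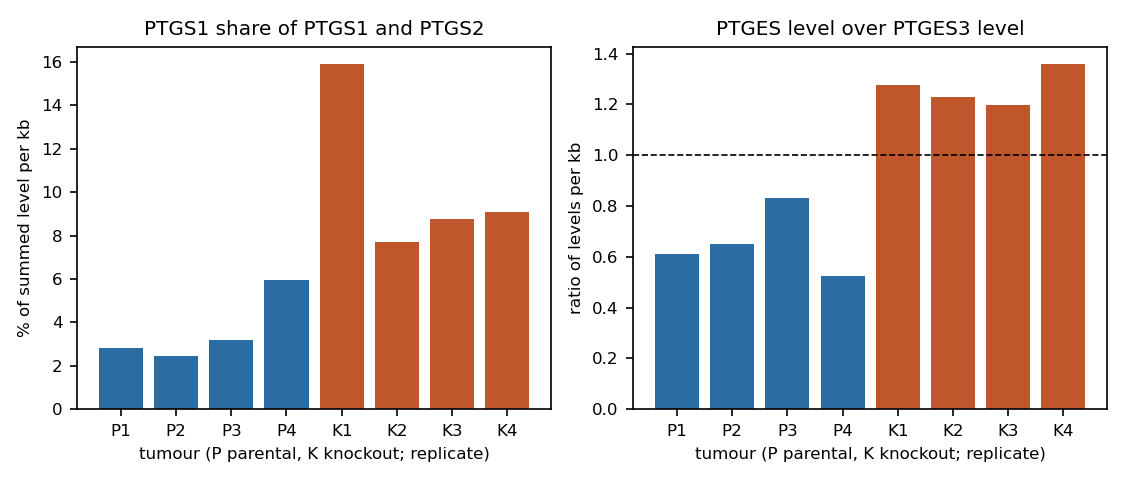
Left, PTGS1 as a percentage of the summed PTGS1 and PTGS2 level per kilobase of merged exon; right, the PTGES level divided by the PTGES3 level per kilobase, with a dashed line at 1. Each bar is 1 tumour (P1 to P4 parental, K1 to K4 SMARCA4 knockout, both axes linear from 0), and the shares run from 2.46% to 5.97% in parental and from 7.71% to 15.9% in knockout tumours.

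The receptors were close to the limit of detection. PTGER4, which couples prostaglandin E2 to cyclic AMP, had 17, 42, 37 and 20 counts in the parental libraries, in replicate order, against 10, 10, 11 and 5 counts with SMARCA4 knocked out. These are 0.880, 2.05, 1.65 and 0.850 CPM and 0.467, 0.488, 0.513 and 0.233 CPM, so the groups did not overlap. PTGER4 fell 3.16-fold, a log2 fold change of -1.66 (SE 0.380, 95% interval -2.50 to -0.83, edgeR adjusted p = 0.00746). Parental replicates 2 and 3, with the highest PTGER4, also had the highest leukocyte marker sums, at 71.3 and 60.9 CPM. Parental replicates 1 and 4 had leukocyte sums of 13.3 and 7.65 CPM, against 12.9 to 30.4 CPM in knockout tumours. The part of leukocytes in the PTGER4 difference was not tested. PTGER4 (ENSG00000171522) lies on chromosome 5 at 40679498 to 40693735, plus strand.

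PTGER2, the second receptor of this kind, had 1, 4, 2 and 2 counts in parental and 2, 1, 2 and 0 counts in knockout replicates 1 to 4. The ratio of pooled counts, knockout over parental, was 0.562 with an exact 95% interval of 0.148 to 1.87. Its CPM did not differ detectably at this depth (exact two-sided permutation p = 0.429, where 0.0286 is the smallest possible). The 0 in knockout replicate 4 allows up to 3 counts, and this interval and limit cover counting error only. PTGER2 (ENSG00000125384) lies on chromosome 14 at 52314305 to 52328606, plus strand.

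The genes of uptake and breakdown moved in opposite directions. SLCO2A1, the prostaglandin transporter, was at 4.04, 5.18, 7.46 and 12.8 CPM in parental and 3.32, 2.97, 3.59 and 4.62 CPM in knockout replicates 1 to 4. Knockout replicate 4 lay above parental replicate 1, so the groups overlapped. SLCO2A1 fell 2.03-fold by the fit (log2 -1.02, SE 0.320, 95% interval -1.73 to -0.32, edgeR adjusted p = 0.0345). The call was lost when parental replicate 3 or 4 or knockout replicate 1, 2 or 3 was left out, and without parental replicate 4 the log2 fold change was -0.63 (edgeR adjusted p = 0.0814). SLCO2A1 is also expressed by endothelium, whose markers summed to 8.33 CPM in parental replicate 4, where SLCO2A1 was highest, and to 18.04 CPM in parental replicate 3. Of the 7 endothelial markers 2 could be tested. VWF was lower in knockout tumours, as SLCO2A1 was, at 1.27 to 3.08 CPM in parental and 0.280 to 0.439 CPM in knockout tumours (log2 -2.37, edgeR adjusted p = 0.000410), and PECAM1, the larger part of the sums, was not called (log2 0.30, edgeR adjusted p = 0.504). VWF passed the filter on low counts through the parental group, where it was high, so its call follows in part from that selection. CDH5 had 1 to 26 counts in parental and 0 in all 4 knockout libraries. The part of endothelium in the SLCO2A1 difference was not tested. SLCO2A1 (ENSG00000174640) lies on chromosome 3 at 133928145 to 134052184, minus strand.

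HPGD, the dehydrogenase that starts prostaglandin breakdown, was at 26.2, 22.1, 22.2 and 20.6 CPM in parental and 34.4, 27.0, 29.5 and 32.4 CPM in knockout replicates 1 to 4. The groups did not overlap, but parental replicate 1 and knockout replicate 2 were close. HPGD rose 1.36-fold (95% interval 1.15 to 1.602, log2 0.44, SE 0.1095, edgeR adjusted p = 0.0118). PTGR1, which reduces the product of HPGD and also inactivates leukotriene B4, was at 102, 101, 111 and 131 CPM in parental and 188, 200.1, 191 and 211 CPM in knockout replicates 1 to 4. Every knockout tumour was above every parental one, and PTGR1 rose 1.78-fold (95% interval 1.53 to 2.06, log2 0.83, SE 0.0983, edgeR adjusted p = 0.000104), the smallest p of the 9. HPGD (ENSG00000164120) lies on chromosome 4 at 174490177 to 174523154 and PTGR1 (ENSG00000106853) on chromosome 9 at 111549722 to 111599893, both on the minus strand.

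**Figure D3:**
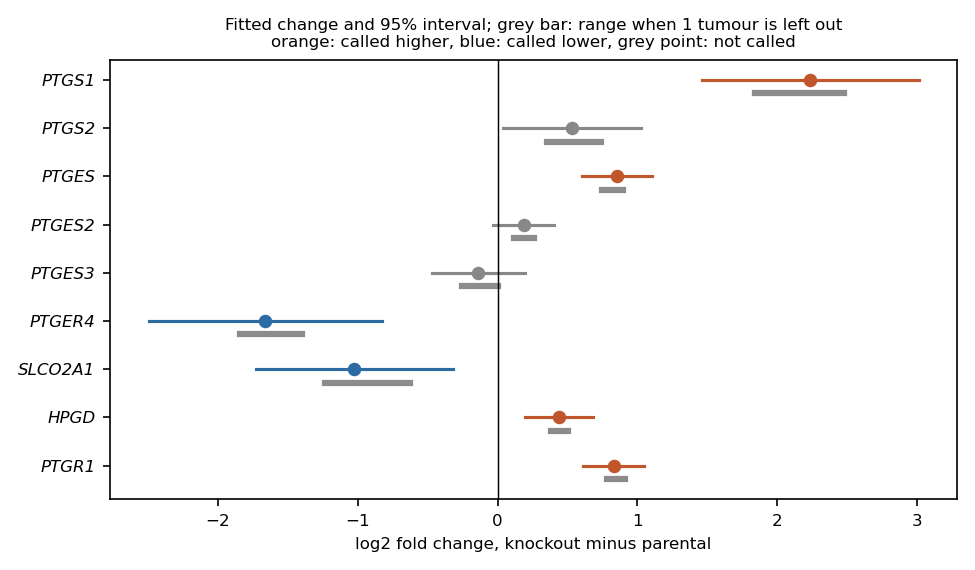
Fitted log2 fold change (x axis, knockout minus parental) of the 9 tested genes with its 95% interval; orange points were called higher, blue points lower and grey points not called, and the grey bar under each gives the range when 1 tumour is left out. The bar of SLCO2A1 reaches from -1.23 to -0.63 and that of PTGS1 from 1.84 to 2.48.

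Levels of the genes were ordered per kilobase of merged exon. In parental tumours the order was PTGES3 (mean 130.0 CPM per kilobase), PTGES (82.5), PTGR1 (29.5), PTGS2 (28.5), PTGES2 (21.4), HPGD (4.11), PTGS1 (1.02), SLCO2A1 (0.748), PTGER4 (0.343) and PTGER2 (0.0426). Ranges overlapped between PTGR1 and PTGS2, between PTGS2 and PTGES2, between PTGS1 and SLCO2A1, and between SLCO2A1 and PTGER4, so these neighbours are not ordered beyond their spread. In knockout tumours PTGES (149) came above PTGES3 (118), followed by PTGR1 (52.5), PTGS2 (41.2), PTGES2 (24.4), HPGD (5.58), PTGS1 (4.83), SLCO2A1 (0.369), PTGER4 (0.107) and PTGER2 (0.0238). There the ranges of PTGS2 overlapped those of PTGR1 and PTGES2, and the range of PTGS1 overlapped that of HPGD.

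Tumour-to-tumour variation was compared after each group's mean was subtracted from log2 CPM, over 8 tumours and 36 pairs of the tested genes. The highest Pearson coefficients were 0.91 between SLCO2A1 and PTGR1, 0.81 between PTGS2 and PTGER4 and 0.80 between PTGES and PTGES2, and the lowest was -0.73 between PTGES3 and PTGER4. The tumours share libraries and depth across genes, so these coefficients are descriptions. PTGER4 had only 5 to 11 counts in the knockout libraries, so counting error enters its coefficients. Likeness to other genes was measured by Pearson's r of log2 CPM over the 8 tumours, which the group difference dominates. Nearest to PTGES were TFAP2A (r = 0.994), PLXND1 (0.992) and IL6 (0.989), nearest to PTGR1 were C5AR2 (0.994), LRP8 (0.993) and BLVRB (0.986), and nearest to PTGER4 were SIPA1L3 (0.992), ACVR1B (0.984) and TBC1D16 (0.983). For each of these, 13052 or 13053 genes were compared and those with the highest r were named. After subtraction of the group means the same pairs stood at 0.80 to 0.98, which follows in part from that selection.

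PTGS1, PTGES, PTGES2 and PTGR1 share chromosome 9. Of the 614 tested genes placed there, 125 (20.4%) were called higher and 44 (7.17%) lower, with a median log2 fold change of 0.15 against 0.003 over all genes tested. The shares over all genes tested were 13.0% called higher and 14.1% lower. The 10 tested genes nearest to PTGS1, 5 on each side, included none called higher and 1 called lower, with a median of 0.19. Around PTGES2 1 was called higher and 1 lower, around PTGES 2 of 10 neighbours were called higher and 1 lower, and around PTGR1 3 were called higher and 1 lower, with medians of 0.09, 0.04 and 0.33.

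A list of 31 further prostanoid genes covered arachidonate release, the other synthases, receptors and transporters. Of these, 20 passed the filter, 5 were called higher and 8 lower (median log2 fold change -0.14, against 0.003 over all genes), where 27.0% of all genes were called. TBXAS1, which makes thromboxane, was at 2.38 to 7.73 CPM in parental and 0.187 to 0.585 CPM in knockout tumours (log2 fold change -3.42, SE 0.429, edgeR adjusted p = 0.000156). Macrophages and platelets also express it, and their part in this difference was not tested. TBXA2R, the thromboxane receptor, went the other way, from 0.207 to 0.425 CPM in parental to 0.585 to 1.40 CPM in knockout tumours (log2 1.66, edgeR adjusted p = 0.00533). PRXL2B, listed as a prostaglandin F synthase, fell from 64.5 ± 5.05 to 25.1 ± 1.19 CPM (SD, n = 4 each; edgeR adjusted p = 1.57e-06), and the secreted phospholipase PLA2G10 fell from 94 to 17 counts over the 4 libraries of a group (log2 -2.40, edgeR adjusted p = 0.000359). TBXAS1 and PLA2G10 passed the filter on low counts through the parental group and TBXA2R through the knockout group, each where it was high, so these calls follow in part from that selection.

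The cytosolic phospholipase PLA2G4A, which supplies arachidonic acid to the cyclooxygenases, stood at 109 to 148 CPM in parental and 97.4 to 130 CPM in knockout tumours and was not called (log2 -0.20, edgeR adjusted p = 0.238). The exporter ABCC4 was not called either (log2 -0.07, edgeR adjusted p = 0.769). The organic anion transporter genes SLCO3A1 and SLCO4A1 changed in opposite directions, with log2 fold changes of -1.24 and 1.04 (edgeR adjusted p = 0.00229 and 0.00256). PTGR2, a relative of PTGR1 in prostaglandin reduction, rose by a log2 fold change of 0.53 (edgeR adjusted p = 0.0301), a call that was lost without parental replicate 3 or 4 or knockout replicate 1, 2 or 4 (0.0520 to 0.0837). ZADH2, another gene of the list, was called lower (log2 -0.30, edgeR adjusted p = 0.0404), a call lost in 9 of 17 alternative analyses.

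Some aldo-keto reductases and carbonyl reductases can act on prostaglandins. AKR1C1 fell from 1251 ± 167 to 598 ± 77.9 CPM while AKR1C2 rose from 1348 ± 82.4 to 2771 ± 303 CPM (SD, n = 4 each; edgeR adjusted p = 8.49e-05 and 2.24e-05). These are near-identical paralogs, and the split of their reads is uncertain. AKR1C3, the prostaglandin F synthase of that family, was not called (log2 -0.05, edgeR adjusted p = 0.757). CBR1, which reduces prostaglandin E2, had a log2 fold change of -0.41 just outside the threshold (edgeR adjusted p = 0.0505), and under 8 of 17 alternative analyses it was called, with adjusted p from 0.00638 to 0.0475. The carbonyl reductase gene CBR3 was called lower (log2 -1.17, edgeR adjusted p = 0.00670), though its groups overlapped.

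Among 26 genes of leukotriene synthesis and arachidonate handling, 22 were tested, 3 were called higher and 6 lower (median log2 fold change -0.004), which is 40.9% called against 27.0% of all genes tested. The epoxide hydrolases diverged: EPHX1 had a log2 fold change of -1.51 and EPHX2, which hydrolyses arachidonate epoxides, of 1.21 (edgeR adjusted p = 0.000251 and 0.000393). MGST3, a microsomal glutathione transferase, rose from 75.9 ± 6.39 to 148 ± 10.6 CPM (SD, n = 4 each; edgeR adjusted p = 2.06e-05). DAGLA, a lipase that releases an arachidonate-bearing lipid, and ACSL3, an acyl-CoA synthetase, fell by 1.28 and 0.73 on the log2 scale (edgeR adjusted p = 0.000270 and 0.00241). The desaturase FADS1, which makes arachidonic acid, rose by a log2 fold change of 0.54 (edgeR adjusted p = 0.00339). FADS2, the other desaturase of the list, and ALOX5 were called lower (log2 -0.67 and -1.30, edgeR adjusted p = 0.00579 and 0.00593).

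Of 22 genes known to induce PTGS2 or to control its message, all tested, 3 were called higher and 4 lower, and their median log2 fold change was 0.01. The share called, 31.8%, was near the 27.0% of all genes tested. Within the interleukin-1 system, IL1B rose from 8.18 to 11.1 CPM in parental to 15.9 to 28.6 CPM in knockout tumours, and the receptor gene IL1R1 rose from 16.3 to 22.2 CPM to 32.1 to 43.4 CPM (log2 1.14 and 1.02, edgeR adjusted p = 0.00121 and 0.000129). The receptor antagonist gene IL1RN fell from 15.7 to 20.8 CPM to 6.14 to 7.56 CPM, and IL1A fell from 56.6 to 92.8 CPM to 35.1 to 51.4 CPM (log2 -1.33 and -0.78, edgeR adjusted p = 3.48e-05 and 0.00317). No value of these 4 genes overlapped between the groups, which follows in part from naming the called genes of smallest p. Of the 22 genes of the list 7 did not overlap, a pattern found in 29.3% of all genes tested. NFAT5 had a log2 fold change of 1.14 and CREB1 of -0.49 (edgeR adjusted p = 0.00232 and 0.00713).

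Genes of the cyclic AMP pathway that the receptors engage, and genes known to respond to it, were called higher in 9 of 22 cases and lower in 1, with a median log2 fold change of 0.29. Over all genes tested, 13.0% were called higher and 14.1% lower. The growth factor genes AREG and EREG were at 6.25 to 13.5 and 9.60 to 22.7 CPM in parental and 24.9 to 42.8 and 30.7 to 59.1 CPM in knockout tumours (log2 1.84 and 1.62, edgeR adjusted p = 0.000127 and 0.000919). IL6 was at 3.56 to 5.49 CPM in parental and 10.7 to 11.1 CPM in knockout tumours (log2 1.21, edgeR adjusted p = 0.000114). The orphan nuclear receptor gene NR4A2 and the cyclic AMP phosphodiesterase genes PDE4B and PDE4D had log2 fold changes of 0.56, 0.91 and 0.75 (edgeR adjusted p = 0.00232, 0.00238 and 0.00424). Of the others called higher, NR4A1, NR4A3 and ADCY3 lost their call in 7, 7 and 4 of 17 alternative analyses. The chemokine gene CXCL8 was the 1 member called lower (log2 -0.51, edgeR adjusted p = 0.0386), and that call was lost without parental replicate 2 or 3 or knockout replicate 2, 3 or 4. The list was assembled with results of these data known, and its counts are not evidence of receptor signalling.

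**Figure D4:**
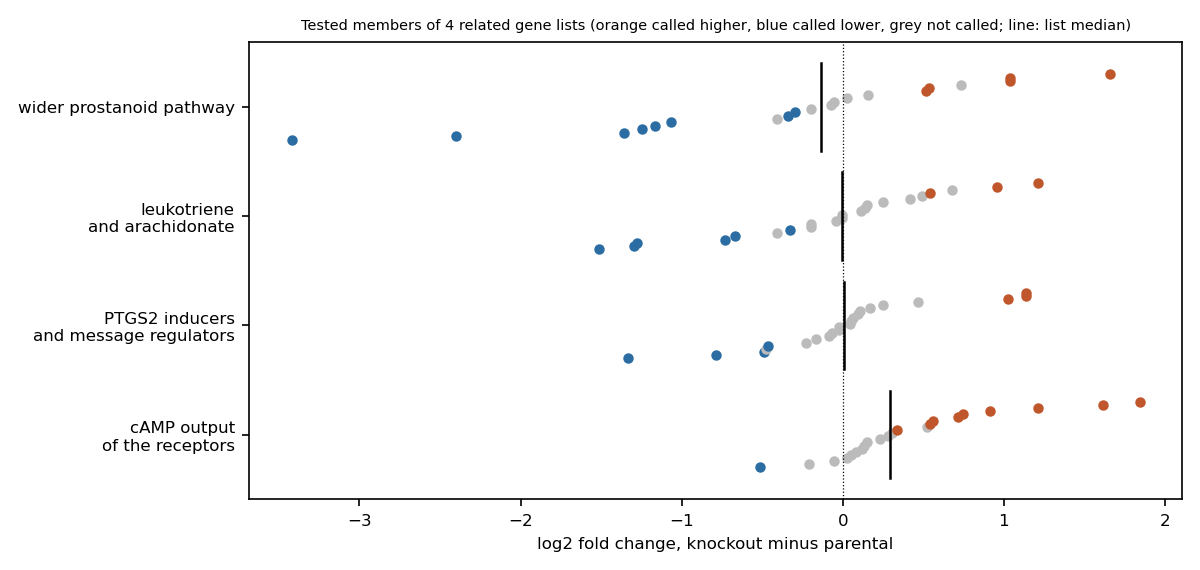
Log2 fold change (x axis, knockout minus parental) of every tested member of the 4 related lists; each point is a gene, orange called higher, blue called lower, grey not called, and the black line is the median of the list. The medians are -0.14, -0.004, 0.01 and 0.29 from top to bottom.

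Knockout replicate 4, in which PTGS2 was lowest, was also the lowest knockout tumour for 17 of 22 PTGS2 inducers and regulators and for 16 of 22 genes of the cyclic AMP list. Over all 16219 tested genes the same tumour was lowest for 32.7%. Among the 9 cyclic AMP genes called higher it was lowest for 8, IL6 being the exception. Over all 2102 genes called higher it was the lowest knockout tumour for 34.2%. It lay above every parental tumour for all 9, which follows in part from taking genes that were called higher. The knockout group lay wholly above the parental group for 14.0% of all genes tested. In the 31 further prostanoid genes it was lowest for 8 of 20 tested. Skeletal muscle markers (7 genes) summed to 15.1 CPM in this tumour and to 0.0975 to 0.467 CPM in the other knockout tumours. In parental replicates 1 to 4 they summed to 0.155, 33.7, 0.134 and 6.63 CPM. Reads that fell in no annotated gene made up 10.4% of those counted in knockout replicate 4. That share was 7.32% to 8.56% in the other knockout libraries and 6.08% to 8.76% in the parental ones. The parts of skeletal muscle and of this library difference in the results were not tested.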

How the data were processed

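Deposited files hold raw counts of reads per gene symbol for each tumour, made with TopHat2 2.1.1, HTSeq 0.11.0 and build hg38 per the submitters' processing notes. The annotation, strand setting and any removal of mouse reads are not given in the sources used here. The 5 summary lines of each file were left out. Of all counted reads, 79.2% to 85.2% were assigned to genes. Every pair of libraries differed by more than sampling noise (chi-square per degree of freedom at least 8.21).

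From the counts, genes were kept by filterByExpr (minimum count 10, minimum total 15), scaled by TMM and compared by the quasi-likelihood F-test in edgeR 4.0.16 (R 4.3.3), with Benjamini-Hochberg adjustment over 16219 genes. SE is the absolute log2 fold change over the square root of F. The test was checked on simulated data. Positions and lengths are from GENCODE 29, which matched 98.2% of tested genes by symbol. Alternatives used DESeq2 1.42.0, limma 3.58.1, 3 scalings, 2 filters, other library sizes, a replicate block, and 1 tumour left out at a time.

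The genes and lists were chosen with earlier results of these data known. All 10 genes, 5 partners and the 6 called genes of smallest p in each list were named by rule. TBXA2R, SLCO4A1, CXCL8, FADS2, ALOX5, ZADH2, CBR3 and the marker genes with values were added after their values were seen. PER1, of the cyclic AMP list, is not analysed here.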

Additional observations from a re-analysis of the deposited data

Results flagged for a closer look

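In 96 sets of 4 values (40 genes and 8 marker sums, 2 groups each), 6 held a tumour far from the other 3, where chance gives about 5%. PTGES was at 121 CPM in parental replicate 2, with the other parental tumours at 166 to 169.9 CPM. PTGER4 was at 0.233 CPM (5 counts) in knockout replicate 4, with the others at 0.467 to 0.513 CPM. EPHX2 was at 5.27 CPM in parental replicate 3, with the others at 3.37 to 3.56 CPM. Endothelial markers summed to 15.3 CPM in knockout replicate 2 against 8.68 to 9.52 CPM in the other knockout tumours. Skeletal muscle markers summed to 15.1 CPM in knockout replicate 4 against 0.0975 to 0.467 CPM in the other knockout tumours. In parental replicates 2 and 4 they summed to 33.7 and 6.63 CPM. Erythroid markers summed to 0 CPM in knockout replicate 4 against 0.0467 to 0.0488 CPM, which is 1 count in each of the others.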

How the results depend on the processing

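PTGS1, PTGES, HPGD, PTGR1 and PTGER4 kept their direction and call in every alternative that tested them; PTGER4 was not tested under the filter of CPM above 1 in at least 4 libraries. Leaving out 1 tumour gave log2 fold changes of 1.84 to 2.48 for PTGS1, 0.75 to 0.89 for PTGES, 0.38 to 0.51 for HPGD, 0.78 to 0.91 for PTGR1 and -1.84 to -1.40 for PTGER4. PTGS2 was called with no filter on low counts (0.52, edgeR adjusted p = 0.0338), and ran from 0.36 to 0.74 without 1 tumour. SLCO2A1 lost its call by limma-voom (-0.92, adjusted p = 0.0631) and ran from -1.23 to -0.63 without 1 tumour. The direction of 3 genes that were not called turned without parental replicate 4: PTGES3 (range -0.25 to 0.0035 over leave-outs), AKR1C3 (-0.122 to 0.0295) and ABCC4 (-0.183 to 0.0568). Members called lower numbered 1 by limma-voom, 1 under the CPM filter and 1 to 2 without 1 tumour. The leukotriene list had 5 called higher with no filter and 3 to 6 without 1 tumour, and the cyclic AMP list 0 to 1 called lower. The PTGES to PTGES3 ratio in knockout tumours moved from 1.26 to 1.11 with the longest transcript. Upper-quartile scaling gave 54.1% of called genes higher, against 47.9%. The cause of these differences was not tested.

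Tumours of the same replicate number had correlations of -0.03, 0.004, -0.28 and 0.12 over genes, after group means were subtracted. Pairs of different numbers had -0.28 to 0.32. These values show no likeness by replicate number, but they cannot exclude a shared batch or handling. With the replicate block PTGS2 was at 0.48 (edgeR adjusted p = 0.0391) and called, and 3871 genes were called against 4385. Depth limits PTGER2 and PTGER4, with 14 and 152 counts in all.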
